A study of Homo sapiens with 9 samples.

Results

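The genes described here are 10 well-known transcriptional targets of p53 (CDKN1A, MDM2, BBC3, SESN1, RRM2B, ZMAT3, FAS, TNFRSF10B, TP53I3 and GADD45A). They were taken as a list of symbols and matched to the Ensembl gene IDs of the count files. All 10 were found, among 60880 gene IDs in all, and all 10 had enough counts to be tested in every comparison. The libraries were made from poly-A RNA of SNU5, an established human gastric carcinoma cell line. Cells were treated for 24 h with ramucirumab, a monoclonal antibody against the receptor VEGFR2, given on gold nanorods through a polyethylene glycol linker (AuNR-PEG-Ab, NR group), on gold nanospheres through the same linker (AuSP-PEG-Ab, SP group) or alone (Ab group). Antibody was present at 8 μg/mL whichever the treatment, so all groups carried it. There were 3 libraries per treatment and 9 together. Untreated cells and particles without antibody were not analysed here. The Ab libraries 1, 2 and 3 held 19566064, 26318227 and 21031024 counts, the NR libraries 25735410, 13863155 and 15943980, and the SP libraries 21682836, 22914759 and 20601906.

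p53 is a transcription factor that is normally kept low because the ubiquitin ligase MDM2 marks it for degradation. DNA damage and other stresses stabilize p53, which then binds a pair of short half-sites near its target genes. The products of these targets halt the cell cycle, repair DNA, limit oxidative stress or start apoptosis, and MDM2 itself is a target, which closes a feedback loop. Several of the same genes are also switched on without p53, by other stress pathways.

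The p53 response element, which consists of a pair of half-sites of 10 bases, was looked for within 5000 bases of each gene's start on GRCh37, on both strands and without a spacer. A half-site is 3 purines, a core of 4 bases (C, a pair of A or T, G) and 3 pyrimidines. Both cores had to fit, and up to 2 of the other 12 bases could differ. Of the 10 genes, 6 held such a match (CDKN1A, GADD45A, FAS, ZMAT3, RRM2B and TNFRSF10B), against 5.01% of the 20162 protein-coding genes scanned in the same way. With up to 3 differing bases, 9 of the 10 held one and SESN1 did not, against 28.8% of genes. The genes were listed as p53 targets, so these counts only describe them, and a match is not proof of binding. The sites below are shown because they are the p53 letters next to genes that moved in opposite directions. Capitals mark bases that fit the element, and lower case marks those that differ.
CDKN1A: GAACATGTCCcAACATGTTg
GADD45A: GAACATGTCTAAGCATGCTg
FAS: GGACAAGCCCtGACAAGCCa
ZMAT3: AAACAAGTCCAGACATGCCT
BBC3: ctGCAAGTCCtGACTTGTCC
The CDKN1A site lies at chr6:36644226-36644245 on the plus strand, 2256 bases before the start of the gene's main transcript, where it overlaps the first annotated bases of the gene. The GADD45A site is at chr1:68152458-68152477 on the plus strand, 1583 bases after the start and between exons. The FAS site is at chr10:90751066-90751085 on the plus strand, 661 bases after the start, in an annotated exon. The ZMAT3 site is at chr3:178787976-178787995 on the minus strand, 1611 bases after the start and between exons, and it fitted with 0 differing bases. The BBC3 site, found only with 3 differing bases, is at chr19:47734577-47734596 on the minus strand, 131 bases before the start.

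Compared with Ab, the 10 genes did not move together. TP53I3 and ZMAT3 rose more than 2-fold in both nanoparticle groups, SESN1, RRM2B and FAS rose by less, and GADD45A, TNFRSF10B, CDKN1A and BBC3 fell. GADD45A fell the most of the 10, by 2.45 on the log2 scale in NR and by 2.19 in SP. MDM2 passed the test in neither group. A gene is said to have risen or fallen when its adjusted p was at most 0.05 in the quasi-likelihood test of edgeR, after Benjamini-Hochberg correction for every gene tested, and it is called when its change was also at least 2-fold. In NR, 5 of the 10 were called, 2 higher and 3 lower, where 22.7% of all 15009 genes tested were called, 12.4% higher and 10.3% lower. In SP, 4 of the 10 were called, 2 higher and 2 lower, where 23.2% of 15068 genes were called, 12.6% higher and 10.6% lower. Without the fold minimum, 5 genes rose and 4 fell in each group, whereas 72.7% of all genes passed in NR (36.4% higher, 36.4% lower) and 73.0% in SP (36.4% higher, 36.6% lower). The 3 nanoparticle libraries lay entirely above or below the 3 Ab libraries for 9 of the 10 genes in each comparison, as they did for 74.7% of all genes in NR and 75.1% in SP. Most genes of these libraries moved, so the number of members that moved is not a result about p53 targets. The median log2 fold change of the 10 genes was 0.19 in NR and 0.23 in SP, beside -0.01 over all genes in both. NR and SP were compared with the same Ab libraries, so their values are given side by side and do not check each other. The labels do not say whether the libraries of a group came from separate cultures. The paper calls its replicates biological, and its reporting summary states that in vitro experiments were repeated independently at least 3 times. Neither says that each library was a separate culture, so the p-values measure the spread between libraries, which may be technical. In bulk libraries, fewer cells that express a gene and less of its RNA per cell cannot be told apart.

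**Figure D1:**
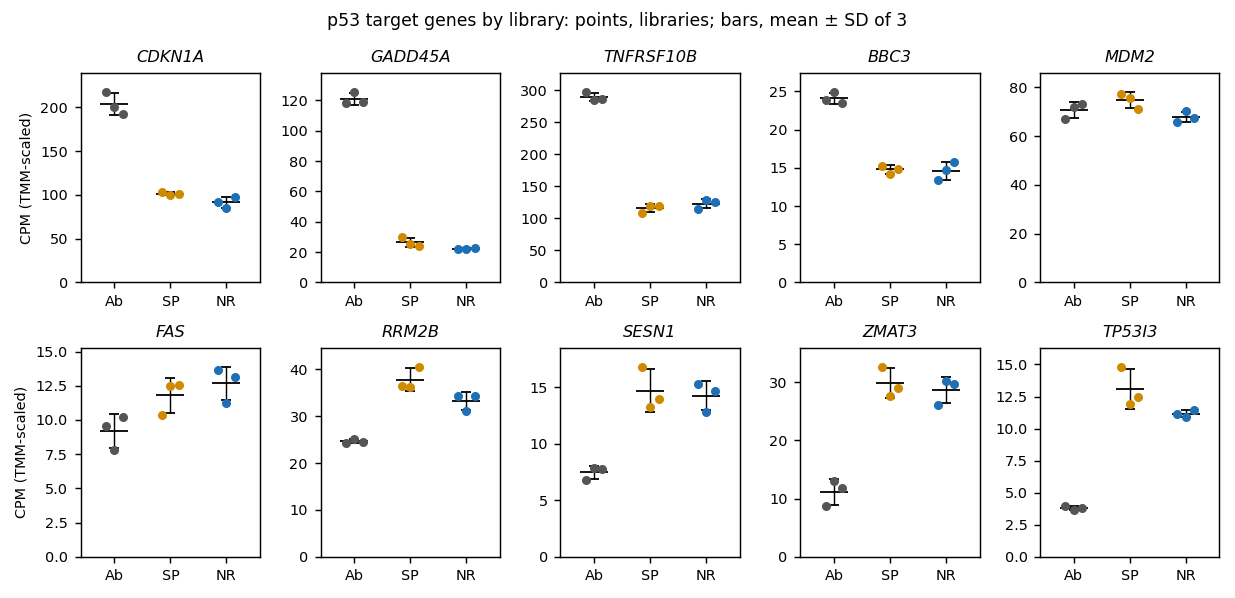
Level of each of the 10 p53 target genes in every library, as TMM-scaled CPM (vertical axis, from 0), for the Ab, SP and NR groups; points are libraries and bars the mean ± SD of 3. GADD45A, TNFRSF10B, CDKN1A and BBC3 sit lower in SP and NR than in Ab, SESN1, RRM2B, FAS, ZMAT3 and TP53I3 sit higher, and the MDM2 libraries overlap.

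CDKN1A (ENSG00000124762, chr6:36644237-36655114, plus strand) encodes p21, the inhibitor of cyclin-dependent kinases that carries out much of the p53 cell-cycle arrest. Its level, as counts brought to a common library total with TMM scaling (CPM), was 217, 201 and 193 in Ab, 92.0, 85.0 and 97.1 in NR, and 104, 100.2 and 100.5 in SP. Every nanoparticle library was at or under 104 CPM and every Ab library above 192, with no overlap. CDKN1A fell by 1.15 on the log2 scale in NR (SE 0.05, edgeR adjusted p = 9.07e-17). In SP it fell by 0.997 (SE 0.05, edgeR adjusted p = 6.99e-16), just short of the 2-fold minimum. Whether CDKN1A was called in SP therefore hung on small choices: it was called in 5 of 13 alternative fits, for example without SP replicate 1, Ab replicate 2 or Ab replicate 3. The exons share 4.87% of their bases with the noncoding gene DINOL.

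GADD45A (ENSG00000116717, chr1:68150884-68154017, plus strand) encodes a small stress protein that binds PCNA and p21 and takes part in DNA repair and the G2 checkpoint. Its CPM was 119, 125 and 119 in Ab, 21.9, 21.8 and 22.7 in NR, and 30.0, 25.4 and 23.8 in SP. The groups were far apart, with every Ab library above 118 and every nanoparticle library at or under 30. The fall was 5.46-fold in NR (-2.45 on the log2 scale, SE 0.06, edgeR adjusted p = 1.42e-23) and 4.56-fold in SP (-2.19, SE 0.07, adjusted p = 3.59e-20).

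MDM2 (ENSG00000135679, chr12:69201957-69239324, plus strand) encodes the ligase that marks p53 for degradation. Its CPM was 67.0, 71.8 and 73.2 in Ab, 66.0, 70.2 and 67.4 in NR, and 77.4, 75.8 and 71.2 in SP, so each nanoparticle group overlapped Ab. The log2 difference from Ab was -0.06 in NR (95% interval -0.17 to 0.06, edgeR adjusted p = 0.36). In SP it was 0.09 (95% interval -0.03 to 0.21, adjusted p = 0.175). These intervals leave out a change as large as that of any of the genes called. MDM2 shares 14.7% of its exon bases with neighbouring genes, and the sources do not state whether the counting used strand.

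Among the 10 genes, those with roles in apoptosis moved in both directions. BBC3 (ENSG00000105327, chr19:47724079-47736023, minus strand) encodes PUMA, which binds and neutralizes the BCL2-like survival proteins. Its CPM was 23.9, 24.9 and 23.5 in Ab, 13.4, 14.7 and 15.7 in NR, and 15.3, 14.2 and 14.9 in SP. Both nanoparticle groups lay below all Ab libraries. BBC3 fell by 0.73 on the log2 scale in NR (SE 0.09, edgeR adjusted p = 1.81e-08) and by 0.70 in SP (SE 0.08, adjusted p = 2.1e-08), under the 2-fold minimum.

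TNFRSF10B (ENSG00000120889, chr8:22877646-22926544, minus strand) encodes DR5, the death receptor for the ligand TRAIL. Its CPM was 297, 285 and 287 in Ab, 115, 129 and 125 in NR, and 109, 120.1 and 119 in SP. No library of either nanoparticle group came near the Ab range. The fall was 2.36-fold in NR (log2 fold change -1.24, SE 0.05, edgeR adjusted p = 5.26e-19) and 2.48-fold in SP (-1.31, SE 0.05, adjusted p = 4.7e-19). The exons share 7.52% of their bases with RHOBTB2.

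FAS (ENSG00000026103, chr10:90750414-90775542, plus strand), the receptor for Fas ligand, went the other way by a small step. Its CPM was 9.53, 7.83 and 10.2 in Ab, 13.6, 11.3 and 13.1 in NR, and 10.3, 12.5 and 12.6 in SP. The lowest SP library and the highest Ab library were almost level, at 10.3 and 10.2 CPM. FAS rose by 0.48 on the log2 scale in NR (SE 0.12, edgeR adjusted p = 0.000664) and by 0.38 in SP (SE 0.12, adjusted p = 0.00668). Without Ab replicate 2, the SP difference was 0.26 and no longer passed (edgeR adjusted p = 0.0786). Of the exon bases of FAS, 25.7% also belong to other genes, mainly ACTA2. The deposited ACTA2 counts were 11 to 27 per library, and its scaled CPM overlapped between all groups.

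TP53I3 (ENSG00000115129, chr2:24300303-24308731, minus strand) encodes PIG3, a quinone oxidoreductase linked to reactive oxygen species. It had 76, 96 and 79 counts in Ab, 287, 152 and 184 in NR, and 324, 276 and 257 in SP. Scaled by library, these were 3.96, 3.68 and 3.83 CPM in Ab, 11.1, 10.9 and 11.5 in NR, and 14.8, 11.9 and 12.4 in SP. The Ab libraries were tightly grouped, and every nanoparticle library was far above them. TP53I3 rose 2.93-fold in NR (log2 fold change 1.55, SE 0.13, edgeR adjusted p = 2.34e-11) and 3.44-fold in SP (1.78, SE 0.13, adjusted p = 1.49e-12). This was the largest rise among the 10 genes.

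SESN1 (ENSG00000080546, chr6:109305512-109416049, minus strand) encodes sestrin 1, which restrains mTORC1 signalling. Its CPM was 6.82, 7.87 and 7.76 in Ab, 15.3, 12.8 and 14.7 in NR, and 16.9, 13.2 and 14.02 in SP, with no overlap. The rise was 0.94 on the log2 scale in NR (SE 0.11, edgeR adjusted p = 2.38e-08) and 0.98 in SP (SE 0.12, adjusted p = 1.9e-08), close to but under 2-fold. SESN1 just reached 2-fold in NR without NR replicate 2, and in SP it did so without SP replicate 2 (1.04), SP replicate 3 (1.02) or Ab replicate 2 (1.01).

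RRM2B (ENSG00000048392, chr8:103216730-103251189, minus strand) encodes p53R2, a ribonucleotide reductase subunit that supplies DNA precursors outside S phase. Its CPM was 24.3, 25.1 and 24.6 in Ab, 34.3, 31.1 and 34.3 in NR, and 36.5, 36.3 and 40.6 in SP. The groups were ordered Ab, NR and SP with no overlap between any of them. RRM2B rose by 0.44 on the log2 scale in NR (SE 0.07, edgeR adjusted p = 4.2e-06) and by 0.62 in SP (SE 0.07, adjusted p = 1.23e-08).

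ZMAT3 (ENSG00000172667, chr3:178677909-178790003, minus strand) encodes a zinc finger protein that binds RNA. Its CPM was 8.64, 12.97 and 11.8 in Ab, 26.0, 30.2 and 29.6 in NR, and 32.7, 27.7 and 29.1 in SP. The Ab libraries varied more than for the other members, with a coefficient of variation of 20.1%, but the highest of them was far below the lowest nanoparticle library. ZMAT3 rose 2.54-fold in NR (log2 fold change 1.34, SE 0.12, edgeR adjusted p = 5.92e-09) and 2.66-fold in SP (1.41, SE 0.11, adjusted p = 1.93e-09).

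**Figure D2:**
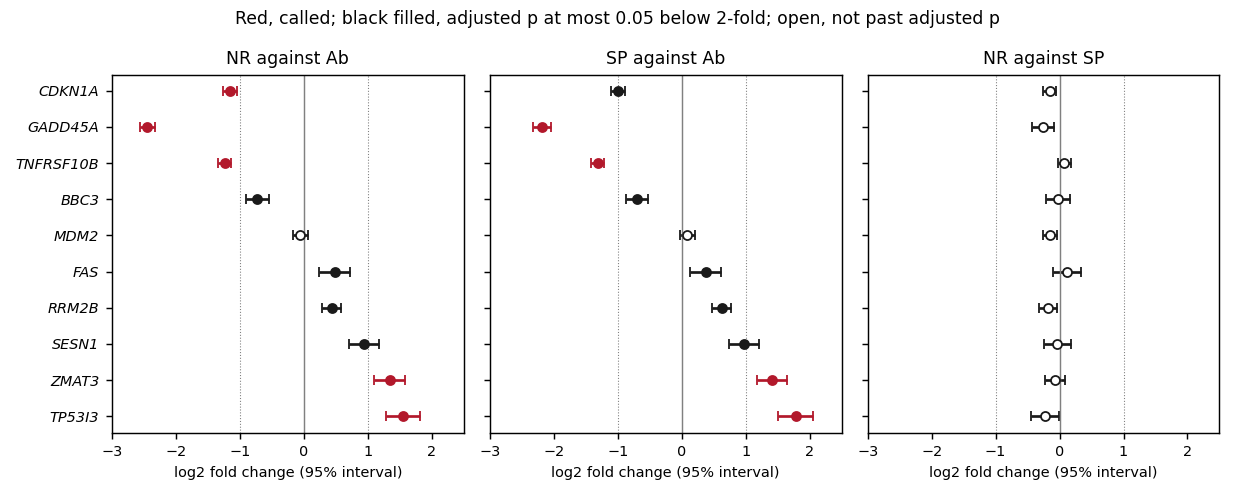
Log2 fold changes of the 10 genes (horizontal axis) with 95% intervals from edgeR, 3 libraries against 3, for NR against Ab, SP against Ab and NR against SP; red points were called, filled black points passed the adjusted p below 2-fold, open points did not pass, and dotted lines mark 2-fold. The changes against Ab run from -2.45 for GADD45A to 1.78 for TP53I3, whereas all intervals of NR against SP lie between -0.44 and 0.33.

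Because levels can be compared between genes only per length, the CPM were divided by the kilobases of exons. In Ab, CDKN1A (68.0 ± 4.20 CPM per kb, SD, n = 3), GADD45A (62.8 ± 1.98) and TNFRSF10B (57.9 ± 1.28) were the most abundant of the 10, and the libraries of CDKN1A and GADD45A overlapped. MDM2 followed at 8.51 CPM per kb, then BBC3 at 7.56, RRM2B at 4.57, FAS at 2.58 and TP53I3 at 1.65. SESN1 at 1.03 and ZMAT3 at 0.99 came last and overlapped. In NR, CDKN1A (30.5 ± 2.02 CPM per kb) and TNFRSF10B (24.5 ± 1.43) led, and GADD45A had dropped to 11.5 ± 0.26. TP53I3 (4.83) and BBC3 (4.59) overlapped there, and TP53I3 stood above BBC3 in SP (5.65 against 4.64), whereas in Ab BBC3 was the more abundant. The genes that fell were thus BBC3 and the 3 that were most abundant in Ab. The summed level of the 10 genes was 754 to 777 CPM in Ab, 409 to 432 in NR and 437 to 447 in SP.

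The 6 genes with a p53 element within 2 differing bases split evenly by direction. CDKN1A, GADD45A and TNFRSF10B, whose log2 fold changes in NR were -1.15, -2.45 and -1.24, each held a match. So did ZMAT3, FAS and RRM2B, whose log2 fold changes were 1.34, 0.48 and 0.44. The GADD45A element printed above differs from the consensus at 1 base, that of ZMAT3 at 0.

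A list of 13 genes around p53 and its control was described next. MDM4, which binds p53 and blocks its activity, fell from 61.7 to 64.8 CPM in Ab to 27.0 to 31.5 in NR and 25.4 to 31.4 in SP. Its log2 fold change was -1.11 in NR (edgeR adjusted p = 7.22e-15) and -1.14 in SP (adjusted p = 2.39e-14). In all, 9 of the 13 rose and 4 fell in NR, and 9 rose and 3 fell in SP, with medians of 0.27 and 0.34. Over all genes tested, 36.4% rose and 36.4% fell in NR, and 36.4% rose and 36.6% fell in SP. TP53BP1, a binding partner of p53 in the DNA damage response, rose by 0.89 and 0.98. RPL5 and RPL11, ribosomal proteins that can hold MDM2 back, rose by 0.61 and 0.73 in NR and by 0.54 and 0.52 in SP. EP300, an acetyltransferase that serves p53 as a coactivator, fell by 0.89 and 0.71, and USP7, which removes ubiquitin from MDM2 and p53, fell by 0.30 and 0.28. All of these fold changes are on the log2 scale and passed the adjusted p.

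A wider list of 47 other p53 targets also split by direction. In NR, 41 could be tested, of which 7 were called higher and 5 lower, and 19 rose and 15 fell past the adjusted p. In SP, 42 could be tested, with 8 called higher and 5 lower, and 22 rose and 13 fell. The medians were 0.15 and 0.19, beside -0.01 over all genes. SESN2, sestrin 2, fell from 260 to 286 CPM in Ab to 19.8 to 21.9 in NR and 22.3 to 24.5 in SP. GDF15, a secreted stress cytokine, fell by 2.36 on the log2 scale in NR and 2.18 in SP. PMAIP1, which encodes the apoptosis inducer NOXA, fell by 1.71 and 1.86. Among the risers were CD82, a tetraspanin, by 2.54 and 2.48, and BTG2, an antiproliferative gene, by 1.78 and 1.85. Further called genes, named after their values were seen, were PLK3 (-1.57 and -1.29), FDXR (1.88 and 2.15), FUCA1 (1.71 and 1.80), POLH (1.40 and 1.56) and TP53INP1 (2.19 and 2.63). TNFRSF10C, a decoy receptor for TRAIL, was called higher from 2 to 4 counts in Ab against 13 to 31 in the nanoparticle libraries. TRIM22 had 2 to 3 counts in Ab, 6 to 18 in NR and 14 to 22 in SP, and it was called in SP (edgeR adjusted p = 1.17e-05) and had too few counts to be tested in NR. Its difference between NR and SP did not pass the test (edgeR adjusted p = 0.646). Of the 47, 15 held a p53 element within 2 differing bases, against 5.01% of all protein-coding genes scanned. Among the 15 were GDF15 and PMAIP1, which fell, and BTG2 and FUCA1, which rose.

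Several members belong to small families, and the paralogs did not always move with them. SESN1 rose while SESN2 fell by 3.68 on the log2 scale in NR (SE 0.06, edgeR adjusted p = 2.27e-27) and by 3.52 in SP (SE 0.06, adjusted p = 2.46e-26). The ratio of SESN1 to SESN2, both per kb of exons, was 0.0132 ± 0.0016 in Ab (SD, n = 3), 0.324 ± 0.034 in NR and 0.297 ± 0.031 in SP. SESN3 was at 0 in Ab and had too few counts to be tested against it. Its means, 0.335 CPM in NR and 0.511 in SP, were 2.41-fold and 3.68-fold a floor of 3 counts per Ab library. MDM2 did not pass the test while MDM4 fell, and the ratio of MDM2 to MDM4 was 1.48 ± 0.10 in Ab, 3.09 ± 0.20 in NR and 3.50 ± 0.22 in SP. GADD45B, by contrast, fell along with GADD45A, by 1.99 and 1.79, and GADD45G had 0 counts in every library. For the receptors of TRAIL, TNFRSF10A (DR4) fell by 0.47 and 0.49 and the decoy TNFRSF10D by 0.23 and 0.24, less than TNFRSF10B. CDKN1B, which encodes the inhibitor p27, fell by 0.91 and 0.93, and CDKN1C, which encodes p57, rose by 0.28 and 0.34. The other subunits of ribonucleotide reductase rose with RRM2B: RRM1 by 1.30 and 1.26 and the paralog RRM2 by 0.76 and 0.60.

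**Figure D3:**
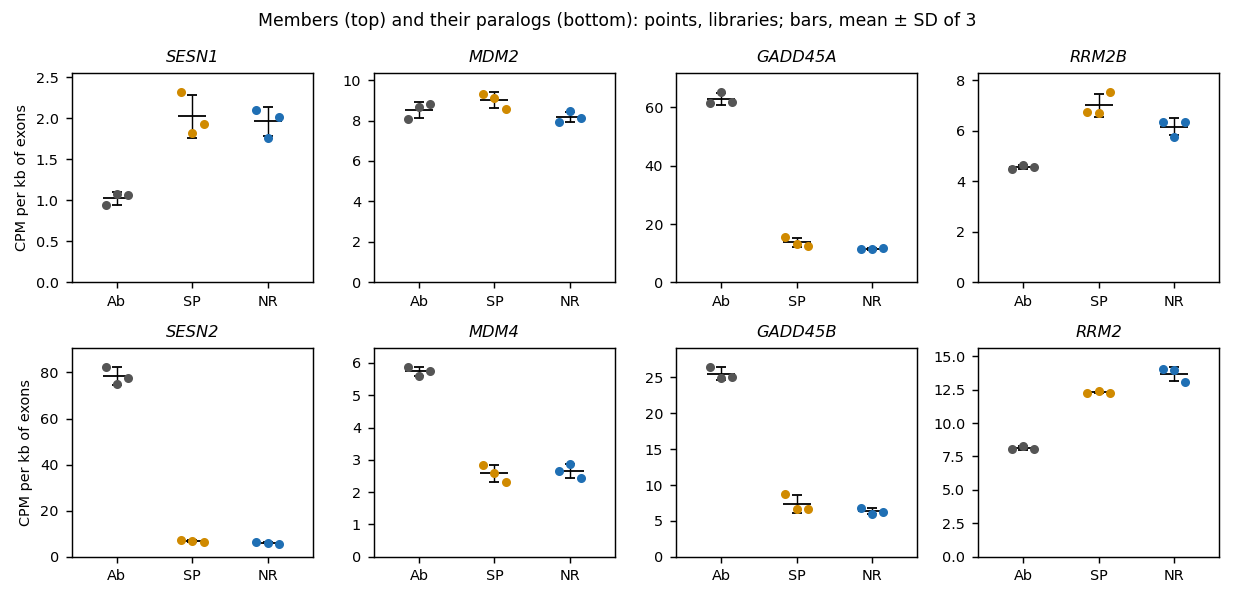
CPM per kb of exons (vertical axis, from 0) of SESN1, MDM2, GADD45A and RRM2B in the top row and of the paralogs SESN2, MDM4, GADD45B and RRM2 below them, for the Ab, SP and NR groups; points are libraries and bars the mean ± SD of 3. SESN2 drops where SESN1 rises, MDM4 drops where MDM2 overlaps between groups, GADD45B drops with GADD45A and RRM2 rises with RRM2B.

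The proteins that p21 binds and the genes that fall when p21 is active were followed beside CDKN1A. Of 9 p21 partners tested, 6 rose and 2 fell in NR, and 6 rose and 1 fell in SP, with medians of 0.70 and 0.66. Over all genes tested, 36.4% rose and 36.4% fell in NR, and 36.4% rose and 36.6% fell in SP. Cyclin D3 (CCND3) rose from 39.4 to 48.8 CPM in Ab to 140 to 153 in NR and 150 to 155 in SP, a log2 fold change of 1.73 and 1.81. Cyclin E1 (CCNE1) rose by 1.32 and 1.22, CDK2 by 0.90 and 0.78 and the replication clamp PCNA by 0.70 and 0.54, all on the log2 scale. CDK6 fell by 0.65 and 0.40, and CDK4 did not pass the test (0.04 and -0.05). Cyclin E2 (CCNE2) was called in NR with a log2 fold change of 1.03, but not without NR replicate 1 (0.998), NR replicate 2 (0.952), Ab replicate 1 (0.987) or Ab replicate 3 (0.973). Of 19 cell-cycle genes that p53 represses through p21, 15 rose and 1 fell in NR and 16 rose and 1 fell in SP. A rise was seen for 36.4% of all genes in each comparison, and a fall for 36.4% in NR and 36.6% in SP. The medians of the 19 genes were 0.41 and 0.39. The mitotic genes CCNB1 (0.69 and 0.74), BUB1 (0.69 and 0.71) and CDK1 (0.61 and 0.59) were among the risers. The gene that fell was the transcription factor E2F1 (-0.40 and -0.55), named after its values were seen.

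Downstream of the death receptors, 3 of 8 genes tested rose and 2 fell in NR, and 3 rose and 3 fell in SP, with medians of 0.07 and 0.04. Over all genes tested, 36.4% rose and 36.4% fell in NR, and 36.4% rose and 36.6% fell in SP. Of the 8, only CASP10, an initiator caspase, was called, where 22.7% of all genes were called in NR and 23.2% in SP. It was at 4.03 to 5.26 CPM in Ab, 9.92 to 11.9 in NR and 9.43 to 10.3 in SP (log2 fold change 1.25 and 1.14). CFLAR, which blocks caspase 8 activation, fell by 0.67 and 0.65, and CASP8 did not pass the test (0.13 and 0.14). The ligand genes FASLG and TNFSF10 had too few counts to test. Of the 6 partners of PUMA tested, MCL1, a survival protein, was called lower, from 919 to 940.0 CPM in Ab to 388 to 394 in NR and 373 to 411 in SP. Its log2 fold change was -1.24 in NR and -1.22 in SP. BCL2 rose by 0.53 and 0.39, the effector BAX rose by 0.32 and 0.27, and BCL2L1 fell by 0.32 and 0.29. The median of these partners was -0.03 in NR and -0.09 in SP.

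One group of genes of another stress pathway moved strongly between the same libraries. The integrated stress response raises the transcription factor ATF4 and, through it, DDIT3 (CHOP) and other targets. GADD45A and TNFRSF10B are known targets of this pathway too, and SESN2 stands in both its list and that of other p53 targets. All 13 of its listed genes fell in NR and in SP, 12 and 11 of them by at least 2-fold, with medians of -2.31 and -2.39. Over all genes tested, 36.4% fell in NR and 36.6% in SP, and 10.3% and 10.6% were called lower at 2-fold. DDIT4 lay at the 2-fold line, with log2 fold changes of -1.03 in NR and -0.999 in SP, and missed it in NR without Ab replicate 1 (-0.977). The summed level of the 13 genes was 3738 to 4102 CPM in Ab, 1012 to 1047 in NR and 963 to 999 in SP. ATF4 was the most abundant, at 771 to 826 CPM in Ab, 296 to 331 in NR and 262 to 296 in SP. DDIT3 had log2 fold changes of -3.94 in NR and -3.56 in SP, and CHAC1, which breaks down glutathione, of -4.35 and -4.14. The part of this pathway in the changes of the p53 targets was not tested.

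Markers of cell identity were read in the same libraries. Of 7 epithelial markers, KRT8 was the most abundant, at 643 to 678 CPM in Ab, 1848 to 1923 in NR and 1927 to 2022 in SP, and KRT18 was at 198 to 222, 292 to 328 and 295 to 304 CPM. The epithelial cadherin CDH1 had only 5 to 9 counts in Ab against 79 to 159 in the nanoparticle libraries. The summed epithelial level was 907 to 976 CPM in Ab, 2257 to 2290 in NR and 2300 to 2405 in SP. In each comparison 4 of 6 genes tested passed the adjusted p, all higher, where 36.4% of all genes rose. Leukocyte markers were near 0, with 5 of 7 at or under 3 counts in every library and a sum of 1.15 to 3.19 CPM. Stromal and endothelial markers summed to 22.3 to 48.5 CPM in Ab, 60.3 to 64.5 in NR and 63.4 to 70.2 in SP, led by COL1A1, whose log2 differences from Ab were 0.63 in NR and 0.72 in SP (edgeR adjusted p = 0.131 and 0.0941). The 2 of 6 tested that rose in each comparison were both endothelial markers. CDH5, the endothelial cadherin, was at 3.59 to 5.09 CPM in Ab, 19.8 to 21.8 in NR and 19.4 to 22.3 in SP, 5.09-fold higher in both (edgeR adjusted p = 4.11e-16 in NR and 7.12e-16 in SP). VWF, von Willebrand factor, had 0 or 1 counts in Ab, 21 to 34 in NR and 28 to 34 in SP (edgeR adjusted p = 3.4e-09 in NR and 2.64e-09 in SP). Mitochondrial transcripts took 3.41% to 3.71% of the counts in Ab and 4.36% to 4.66% in NR and SP. The part of these shifts in the result was not tested.

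The comparison of NR with SP sets nanorods against nanospheres with the same antibody. By the paper's description the particles also differed in size, surface charge and supplier, so an effect of shape alone cannot be told apart. Of the 10 genes, 0 passed the adjusted p in edgeR or in DESeq2, where 0.443% of all 14903 genes tested passed in edgeR and 0.0201% were called at 2-fold. Before adjustment, 5 genes had a p under 0.05 in edgeR and 4 in DESeq2, all lower in NR, where 12.9% of all genes reached this in edgeR. The 3 NR libraries lay below the 3 SP libraries for 5 of the 10 (CDKN1A, GADD45A, MDM2, RRM2B and TP53I3) and above them for 0, where 8.84% of all genes lay below and 8.98% above. GADD45A had the lowest adjusted p of the 10 (log2 difference -0.26, 95% interval -0.43 to -0.09, edgeR adjusted p = 0.149). For TP53I3 the difference was -0.23 (95% interval -0.44 to -0.01, adjusted p = 0.355), for RRM2B -0.18 (-0.32 to -0.05, adjusted p = 0.219), for CDKN1A -0.15 (-0.25 to -0.05, adjusted p = 0.17) and for MDM2 -0.14 (-0.25 to -0.04, adjusted p = 0.213). The other 5 genes overlapped between NR and SP. Their differences were 0.11 for FAS (95% interval -0.11 to 0.33), 0.08 for TNFRSF10B (-0.03 to 0.18), -0.03 for BBC3 (-0.22 to 0.16), -0.03 for SESN1 (-0.24 to 0.18) and -0.07 for ZMAT3 (-0.23 to 0.09). A miss of the threshold does not show that both particles acted alike, but every interval lay well inside 2-fold in either direction.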

How the data were processed

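Poly-A RNA of SNU5 cells was sequenced. The authors aligned the reads with HISAT2 (version 2.1.0 in the submitters' notes) and deposited whole read counts per Ensembl gene, not scaled between libraries. The reporting summary names the human build hg19, while the submitters' notes list mm9; the IDs are human. The counter is given under different names in the sources, and strand and annotation release are not stated. Names, positions and exon lengths came from GENCODE 44 on GRCh37, which held 59858 of the 60880 IDs. The 1022 others took 0.102% to 0.115% of the counts.

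Groups were compared in pairs, on their 6 libraries, with edgeR 4.0.16 in R 4.3.3 (TMM, filterByExpr with a minimum count of 10 and total of 15, robust quasi-likelihood test, Benjamini-Hochberg adjustment). The call needed an adjusted p of at most 0.05 and 2-fold. The fit was tested on simulated counts. A count of 0 allows up to 3 counts, 0.114 to 0.216 CPM, for counting error only. Libraries within a group differed from each other by more than sampling noise, so none was treated as a second deposit of another, which does not show that they came from separate cultures. Alternatives were DESeq2 1.42.0, RLE scaling, other filters and fold minima, glmTreat, all 9 libraries in one fit, a replicate block and leaving out each library. Tables and figures used Python 3.11.15, numpy 2.4.6, pandas 2.3.3 and matplotlib 3.10.9.

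The members and gene lists were chosen with earlier results of these data known. Named were the 10 members, their paralogs, any gene of lists of at most 13 genes, and the 6 genes with the smallest adjusted p in NR against Ab of longer lists. Authors' comparisons and protein data were not used. The values of some single genes of the lists are not reported here.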

Additional observations from a re-analysis of the deposited data

Results flagged for a closer look

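Among the 111 related genes tested around the 10 p53 targets, 2 differed between NR and SP past the adjusted p. Over all 14903 genes tested, 0.443% did so. RPL11, a ribosomal protein that binds MDM2, was at 784, 747 and 765 CPM in NR and 697, 611 and 669 in SP, a log2 difference of 0.21 (SE 0.04, edgeR adjusted p = 0.0168). It passed in 9 of 13 alternative fits, and its difference ranged from 0.16 to 0.26. Without NR replicate 2, NR replicate 3 or SP replicate 2, the edgeR adjusted p was 0.0669, 0.0612 or 0.112. PCNA, the replication clamp that p21 binds, was at 336, 330.1 and 325 CPM in NR and 288, 293 and 302 in SP, a log2 difference of 0.17 (SE 0.04, edgeR adjusted p = 0.0353). It passed in 5 of 13 alternative fits, with a difference of 0.15 to 0.18. Of the fits that left out 1 library, only that without SP replicate 3 kept PCNA past the threshold, and it did not pass with all 9 libraries in one fit. The libraries of both genes did not overlap between NR and SP. With 3 libraries per group, single libraries were not examined as outliers.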

How the results depend on the processing

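The members' directions against Ab held in every alternative. With a fold minimum of 1.5 in place of 2, 6348 genes were called in NR against Ab (3409 at 2-fold) and 6385 in SP (3502), with 58 of the 122 related genes of the other pathway lists in each (32 and 31) and 7 and 8 of the 10 members (5 and 4). With no fold minimum these were 10916 and 11002 genes, 93 and 95 related genes and 9 members in each. The test against 2-fold (glmTreat) called 2061 and 2131 genes, and lost MDM4, CCNE2 and DDIT4 in NR and CASP10 in both. Between NR and SP, 3 genes were called, against 0 with DESeq2 or glmTreat, 27 with no low-count filter, 5 at 1.5-fold and 66 with no fold minimum, of which 2 were related genes. Leaving out NR2, SP1, SP3 or NR1 gave 0, 1, 5 or 28 genes. The sign of NR against SP turned for BBC3 (range over single libraries left out -0.083 to 0.041), SESN1 (-0.104 to 0.0796) and ZMAT3 (-0.12 to 0.0031), none of them past the adjusted p. The cause was not tested.

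Same-numbered libraries showed no shared shift, as the correlations of their deviations were -0.0994 to 0.041. With 3 libraries per group, this cannot exclude that samples were paired. With the replicate block, 5, 4 and 0 members and 3414, 3493 and 4 genes were called in NR against Ab, SP against Ab and NR against SP, and the block changed no call of a member. With it, PCNA in NR against SP no longer passed (edgeR adjusted p = 0.0791). The lowest depth, 13863155 counts in NR2, limits genes with few counts most.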
